A study of Homo sapiens with 2 samples.

Results

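Aminoacyl-tRNA synthetases, the enzymes that load each tRNA with its amino acid, were compared between the cytosolic and the mitochondrial set in HCT116 cells treated with LXR623. The members were chosen by name, as the probe sets whose platform annotation carries the symbol of a synthetase, and 35 genes were found among the 22458 genes named on the 23786 probe sets of the table. Of these, 17 encode cytosolic enzymes, 16 encode mitochondrial enzymes, whose symbols end in 2, and 2 genes, GARS1 and KARS1, serve both compartments. HCT116 is an established human colon carcinoma cell line. The cells were exposed for 24 h to 20 µM LXR623, which activates the liver X receptors (LXR), and the control cells received 0.1% DMSO, the solvent. Total RNA was hybridized to 1 expression array per condition, so the differences stand without replicates, errors or tests. The labels name RPMI as the medium, whereas the methods of the study name DMEM for these cells.

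Protein synthesis runs in the cytosol and, separately, inside mitochondria, and each site needs its own charged tRNAs. For most amino acids the human genome therefore holds a gene for the cytosolic enzyme and another for the mitochondrial enzyme, both in the nucleus. Uncharged tRNA activates the kinase GCN2, which starts the integrated stress response through the transcription factor ATF4, and several genes of cytosolic synthetases are known targets of ATF4. Several cytosolic enzymes are held in the multi-synthetase complex, and the others act outside it.

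The deposited values are log2 intensities, and every difference given here is the log2 value in the LXR623 array minus that in the DMSO array. A level of 4.42, the median of the table, in at least 1 array was required to count a probe set as measured. This left 12279 probe sets, and all 35 synthetases were among them. Values of different genes come from different probes and are not set against each other. The arrays had medians of 4.43 with LXR623 and 4.40 with DMSO, and the measured probe sets had a median difference of -0.02. ABCA1, the cholesterol exporter that LXR switches on, had 5.14 in the LXR623 array and 3.58, under the measured level, in the DMSO array, and SREBF1, another LXR target, had 8.88 with LXR623 and 7.97 with DMSO. The cell identity was read from markers. Of 10 colon epithelial markers 6 were measured. EPCAM had 10.21 in the LXR623 array and 10.15 in the DMSO array, and KRT8, the marker with the largest difference of the 6, had 7.14 with LXR623 and 5.63 with DMSO, whereas the differentiation markers KRT20, VIL1, CDX1 and LGALS4 lay under the measured level. Of 8 markers of other cell types 2 were measured, CD68 with 7.12 in the LXR623 array and 6.56 in the DMSO array and COL1A1 with 5.70 with LXR623 and 5.58 with DMSO, and the immune marker PTPRC stood at 1.77 with LXR623 and 1.60 with DMSO.

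Most cytosolic synthetases stood higher in the LXR623 array, by small amounts. The mitochondrial synthetases were closer to the rest of the array in their median and in their share below 0. At 1.5-fold they were further from it, with 25% of them lower, beside 11.8% of the cytosolic genes higher. Of the 17 cytosolic genes, 13 had a difference above 0 and 4 below, and their median was 0.19. Of the 16 mitochondrial genes, 5 were above 0, 10 were below and 1 was at 0, with a median of -0.12. The means, 0.19 for cytosolic and -0.19 for mitochondrial genes, lay about equally far from 0. Of all 12279 measured probe sets, 47.0% were above 0 and 51.7% below, so that the 76.5% of cytosolic genes above 0 lay further from the whole table than the 62.5% of mitochondrial genes below 0. The medians lay 0.31 apart on the log2 scale. At a threshold of 1.5-fold, 2 cytosolic genes were higher, CARS1 and SARS1, and 0 were lower, where 6.30% of all measured probe sets were at least 1.5-fold higher. In the mitochondrial set, 4 genes were at least 1.5-fold lower, CARS2, LARS2, MARS2 and YARS2, and 0 were higher, where 5.78% of all measured probe sets were at least 1.5-fold lower. Among the 9424 measured probe sets within the range of mean values of the mitochondrial synthetases, 5.88% were at least 1.5-fold lower and 5.85% higher. Among the 4245 within the range of the cytosolic synthetases, 5.02% were at least 1.5-fold higher and 4.19% lower. In RNA of a whole culture, less of a transcript per cell and fewer cells that hold it cannot be told apart.

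**Figure D1:**
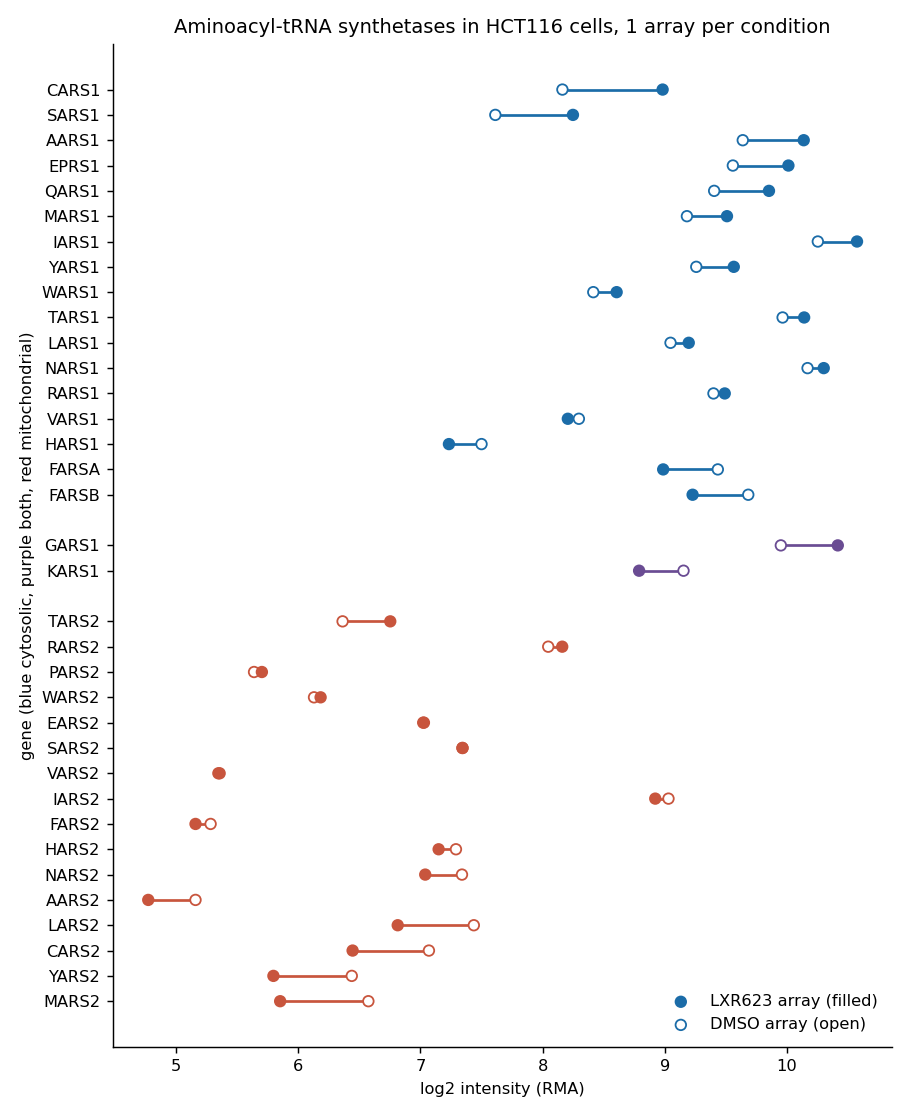
Values of the 35 synthetase genes as log2 intensity on the x axis, with the LXR623 array as filled points and the DMSO array as open points, in blue for cytosolic, purple for both compartments and red for mitochondrial enzymes; each group runs from the largest positive to the largest negative difference. CARS1 stands at 8.98 with LXR623 and 8.16 with DMSO, and MARS2 at 5.85 with LXR623 and 6.57 with DMSO.

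CARS1, which loads cysteine, had the largest difference of the family. Its value was 8.98 in the LXR623 array and 8.16 in the DMSO array, a difference of 0.82 or 1.77-fold, and it ranked 316 from the top among the 12279 measured probe sets. SARS1, which loads serine and also puts serine on the tRNA of selenocysteine, had 8.25 with LXR623 and 7.61 with DMSO, a difference of 0.64 or 1.55-fold. AARS1, the enzyme of alanine, came next and stayed under 1.5-fold, with 10.14 in the LXR623 array, 9.64 in the DMSO array and a difference of 0.50. The other genes of enzymes outside the complex spread to both sides of 0.

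YARS1, the tyrosine enzyme, had 9.57 with LXR623 and 9.26 with DMSO, a difference of 0.31. WARS1, the tryptophan enzyme and a known target of interferon, had 8.61 with LXR623 and 8.42 with DMSO, a difference of 0.19. TARS1, which loads threonine, had 10.14 with LXR623 and 9.97 with DMSO, a difference of 0.18. These differences lay well inside the central 95% of all measured probe sets, which ran from -0.76 to 0.82. All 35 members lay inside this range, CARS1 with 0.820 just under its upper end of 0.825. NARS1, the asparagine enzyme, had 10.30 in the LXR623 array and 10.17 in the DMSO array. VARS1, the valine enzyme, which binds elongation factor subunits, had 8.21 with LXR623 and 8.30 with DMSO.

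The lower cytosolic genes included both subunits of the same enzyme. FARSA and FARSB encode the alpha and the beta subunit of phenylalanyl-tRNA synthetase, which works only as an assembly of both. FARSA had 8.99 with LXR623 and 9.43 with DMSO, and FARSB 9.23 with LXR623 and 9.68 with DMSO. Their differences, -0.45 and -0.46, lay within 0.01 of each other. HARS1, the histidine enzyme, had 7.23 in the LXR623 array and 7.50 in the DMSO array, a difference of -0.27.

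Of the 7 members of the multi-synthetase complex, 6 had differences above 0, between 0.09 and 0.45, and KARS1, which serves both compartments, had -0.36. None reached 1.5-fold. EPRS1, a fused enzyme for glutamate and proline, had 10.01 with LXR623 and 9.56 with DMSO. QARS1, the glutamine enzyme, had 9.85 with LXR623 and 9.40 with DMSO, so that both differed by 0.45. MARS1, which loads methionine also on the initiator tRNA, had 9.51 with LXR623 and 9.18 with DMSO, and IARS1, the isoleucine enzyme, 10.57 with LXR623 and 10.25 with DMSO. LARS1, the leucine enzyme and a leucine sensor upstream of mTORC1, had a smaller difference of 0.15, from 9.20 in the LXR623 array against 9.05 in the DMSO array. RARS1, the arginine enzyme, had 9.49 with LXR623 and 9.40 with DMSO. The median was 0.32 for the 6 cytosolic genes of the complex, and also with KARS1 included, and 0.18 for the 11 cytosolic genes outside the complex, which ran from -0.46 to 0.82. AIMP1, a scaffold protein of the complex, differed by 0.25, with 8.45 in the LXR623 array and 8.21 in the DMSO array.

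The 2 genes that serve both compartments went opposite ways. GARS1, which makes the cytosolic and the mitochondrial glycine enzyme from different start codons, had 10.42 with LXR623 and 9.95 with DMSO, a difference of 0.47. KARS1, whose splice forms give the lysine enzyme of the complex and that of mitochondria, had 8.79 with LXR623 and 9.15 with DMSO, a difference of -0.36. Neither reached 1.5-fold. The array has 1 probe set for each of these genes, so the forms for the 2 compartments were not measured apart.

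Among mitochondrial synthetases, MARS2, the methionine enzyme, had the largest negative difference, -0.72, with 5.85 in the LXR623 array and 6.57 in the DMSO array. YARS2, the tyrosine enzyme, had 5.80 with LXR623 and 6.44 with DMSO, a difference of -0.64. CARS2, the cysteine enzyme, which also makes cysteine persulfide, had 6.44 with LXR623 and 7.07 with DMSO. LARS2, the leucine enzyme, had 6.81 in the LXR623 array and 7.44 in the DMSO array. The differences of CARS2 and LARS2 were both -0.62, just past the threshold of 0.58 on the log2 scale. MARS2 ranked 379, YARS2 555, CARS2 602 and LARS2 607 from the bottom of the 12279 measured probe sets.

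The other mitochondrial genes did not pass 1.5-fold. AARS2, the alanine enzyme, had 4.77 with LXR623 and 5.16 with DMSO, a difference of -0.39 in the dimmest probe set of the family, close to the level that counted as measured. NARS2, the asparagine enzyme, had 7.04 with LXR623 and 7.34 with DMSO. TARS2, the threonine enzyme, stood apart on the positive side with a difference of 0.39, from 6.75 in the LXR623 array against 6.36 in the DMSO array. The remaining 9 genes had differences between -0.14 and 0.11. Of these, HARS2 had 7.15 with LXR623 and 7.29 with DMSO, FARS2 5.16 with LXR623 and 5.28 with DMSO, and IARS2 8.92 with LXR623 and 9.03 with DMSO. RARS2 had 8.16 with LXR623 and 8.05 with DMSO and EARS2 7.03 with LXR623 and 7.02 with DMSO. These genes, which load histidine, phenylalanine, isoleucine, arginine and glutamate, thus hardly differed between the arrays. The same held for PARS2, the proline enzyme, with 5.70 in the LXR623 array and 5.64 in the DMSO array, for WARS2 with 6.18 in the LXR623 array and 6.13 in the DMSO array, and for VARS2 with 5.35 in the LXR623 array and 5.36 in the DMSO array. SARS2, the serine enzyme, held the same value in both arrays, 7.34, as did 166 of the 12279 measured probe sets.

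**Figure D2:**
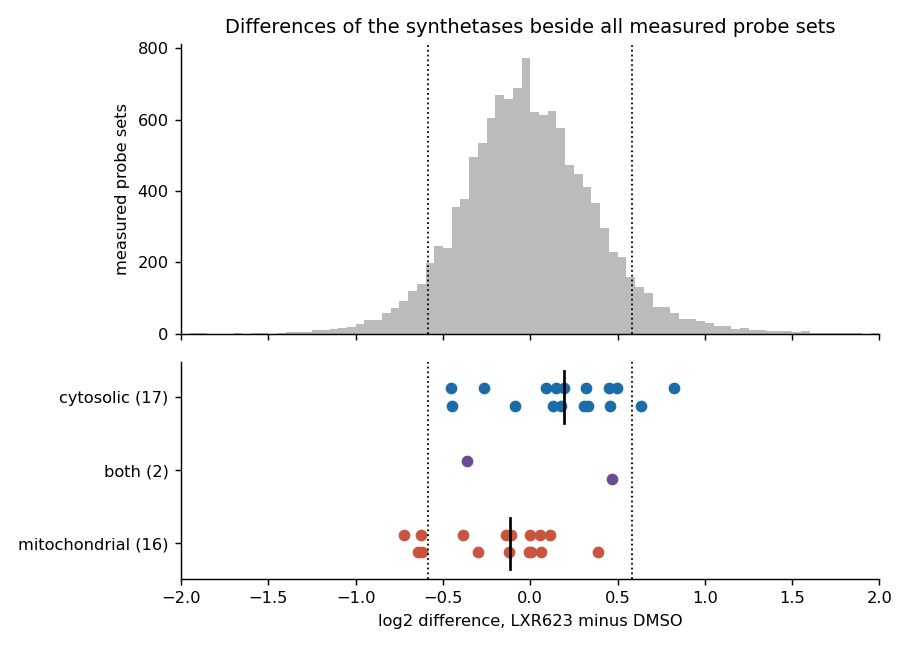
Histogram of the log2 difference, LXR623 minus DMSO, of the 12279 measured probe sets above, and the differences of the synthetase genes below as points, with black bars at the medians of 0.19 for cytosolic and -0.12 for mitochondrial genes. Dotted lines mark 1.5-fold, which CARS1 and SARS1 pass on the right and CARS2, LARS2, MARS2 and YARS2 pass on the left; points are spread vertically only for display.

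Synthetases fall into class I and class II, whose catalytic folds are unrelated, and EPRS1 holds a domain of each. Of the 9 mitochondrial class I genes, 4 were at least 1.5-fold lower, and of the 7 mitochondrial class II genes 0 were, where 5.78% of all measured probe sets were. The medians were -0.11 for class I and -0.12 for class II, and whether the classes differed was not tested. In the cytosolic set the median was 0.31 for the 10 class I genes and 0.15 for the 8 class II genes, EPRS1 counted in both.

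Setting both enzymes of the same amino acid side by side gave 16 pairs, in which EPRS1 stands against EARS2 and against PARS2 and the mean of FARSA and FARSB stands against FARS2. The cytosolic gene had the larger difference in 11 pairs and the mitochondrial gene in 5. The gap was widest for cysteine, where CARS1 had 0.82 and CARS2 -0.62, a gap of 1.45. Methionine followed with 0.33 for MARS1 and -0.72 for MARS2, a gap of 1.05. For tyrosine, YARS1 had 0.31 and YARS2 -0.64. In these pairs the enzymes of the cytosol and of mitochondria lay on opposite sides of 0.

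A gap of at least 0.58, or 1.5-fold, was found in 6 pairs, all with the cytosolic gene above. A gap combines 2 differences, so the shares of single probe sets past 1.5-fold do not apply to it. How often pairs of other probe sets reach such a gap was not computed. These were cysteine, methionine, tyrosine, alanine with 0.89, leucine with 0.77 and serine with 0.64. Serine differs from the others in that its gap came from SARS1 alone, as the difference of SARS2 was 0. In all, 7 pairs had the cytosolic gene above 0 and the mitochondrial gene below, and 0 pairs had the reverse. The 5 pairs with the mitochondrial gene on top were phenylalanine with a gap of -0.33, threonine with -0.21, histidine with -0.13, valine with -0.08 and arginine with -0.02. In the histidine, valine and phenylalanine pairs both enzymes were below 0, and in the threonine and arginine pairs both were above 0. The median gap over the 16 pairs was 0.43.

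**Figure D3:**
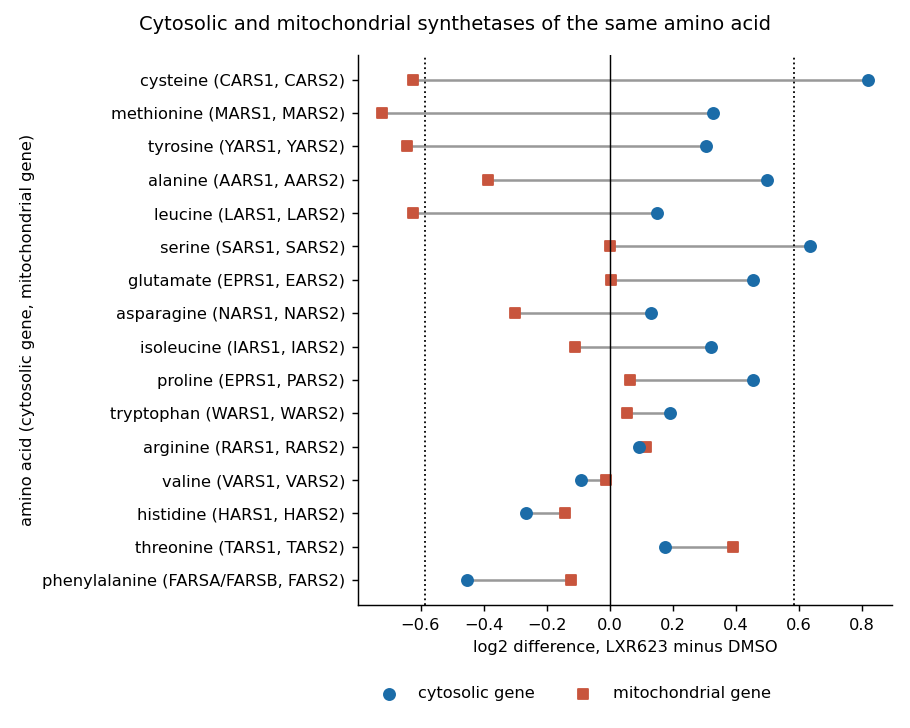
Log2 difference, LXR623 minus DMSO, on the x axis for the cytosolic gene (blue circle) and the mitochondrial gene (red square) of each of 16 pairs, ordered by the gap between them; for phenylalanine the circle is the mean of FARSA and FARSB, and dotted lines mark 1.5-fold. The cytosolic gene lies to the right in 11 pairs, from cysteine with a gap of 1.45 to tryptophan with 0.14.

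ATF4 pairs with C/EBP proteins on a composite DNA site, the C/EBP-ATF element, and its core, TGATGNAA, was searched on both strands in the promoters of the synthetases. RefSeq promoter windows of GRCh38.p14, from 250 bases before to 50 bases after an annotated start, were at hand for 30 of the 35 members, and genes with several starts have several windows. The core was found in 6 of 14 cytosolic genes with a window, in GARS1 but not KARS1, and in 1 of 14 mitochondrial genes. Of 15842 protein-coding genes with a window, 3.60% held it. The matches are shown with the core in capitals, as 30 bases on the strand of the gene, since they show how alike these sites are.
CARS1, chr11:3057407-3057436, minus strand: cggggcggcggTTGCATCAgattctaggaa
MARS1, chr12:57488053-57488082, plus strand: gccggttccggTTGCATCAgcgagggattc
IARS1, chr9:92293692-92293721, minus strand: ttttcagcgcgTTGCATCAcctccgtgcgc
TARS1, chr5:33440956-33440985, plus strand: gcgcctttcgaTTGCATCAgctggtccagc
AARS1, chr16:70289675-70289704, minus strand: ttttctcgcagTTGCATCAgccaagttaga
GARS1, chr7:30594834-30594863, plus strand: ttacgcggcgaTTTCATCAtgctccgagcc
NARS1, chr18:57621804-57621833, minus strand: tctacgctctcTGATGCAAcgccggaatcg
YARS2, chr12:32756076-32756105, minus strand: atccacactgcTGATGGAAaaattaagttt

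CARS1, MARS1, IARS1, TARS1 and AARS1 hold the same 8 bases in the same orientation, the reverse complement of the core as written, and NARS1 holds these 8 bases on the other strand. In CARS1 the match ran from base -2 to base 5 counted from the annotated start, in MARS1 from -4 to 3, in TARS1 from 2 to 9 and in IARS1 from -13 to -6. The match spanned the annotated start in CARS1 and MARS1 and lay within 13 bases of it in TARS1 and IARS1. In AARS1 the match ran from -187 to -180 and in YARS2 from -197 to -190. CARS1, TARS1 and GARS1 have a further annotated start, and its window held no core. For comparison, ASNS and CHAC1, known targets of ATF4, held the core as follows.
ASNS, chr7:97872458-97872487, minus strand: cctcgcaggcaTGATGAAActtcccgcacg
CHAC1, chr15:40953251-40953280, plus strand: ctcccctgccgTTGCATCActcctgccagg

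The core and the differences of the members were set side by side as a description. The 6 cytosolic genes with the core had differences between 0.13 and 0.82 and a median of 0.32. The 8 cytosolic genes with a window but no core ran from -0.46 to 0.64, with a median of 0.14, and SARS1, EPRS1 and QARS1 were among the higher of them. YARS2, the mitochondrial gene with the core, differed by -0.64. A match is no proof of a bound site, and a window without a match says only that these letters are not there.

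After the values were seen, further motifs were searched that are known from genes of mitochondria and growth: CCGGAAG of ETS factors, GCGC, any base and then TGCGC of NRF1 and the E-box CACGTG of MYC and related factors. The ETS motif was found in 7 of 14 cytosolic and 7 of 14 mitochondrial genes, where 16.5% of protein-coding genes held it. The NRF1 motif was in 3 of 14 genes of either set, where 9.66% held it, and the E-box in 1 cytosolic gene, IARS1, and in 3 mitochondrial genes, CARS2, EARS2 and MARS2, where 10.9% held it. No matches of different motifs overlapped. MARS2, the gene with the largest negative difference, carried these 3 motifs in the 60 bases before its start, which are shown with the motifs in capitals; its NRF1 motif reads as a match on both strands.
MARS2, chr2:197705309-197705368, plus strand: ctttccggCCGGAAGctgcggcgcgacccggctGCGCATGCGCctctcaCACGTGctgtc

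LARS2, which also passed 1.5-fold, had none of the motifs searched in its window, and CARS2 had an ETS motif and an E-box in different windows. The members with an E-box had differences of 0.32 for IARS1, 0.01 for EARS2, -0.62 for CARS2 and -0.72 for MARS2. For the ETS motif, the median of mitochondrial genes was 0 with it and -0.12 without it. For the NRF1 motif it was -0.11 with it and -0.12 without it. Cytosolic genes had medians of 0.18 with and 0.33 without the ETS motif, and 0.18 with and 0.32 without the NRF1 motif. Whether motifs and differences go together was not tested.

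**Figure D4:**
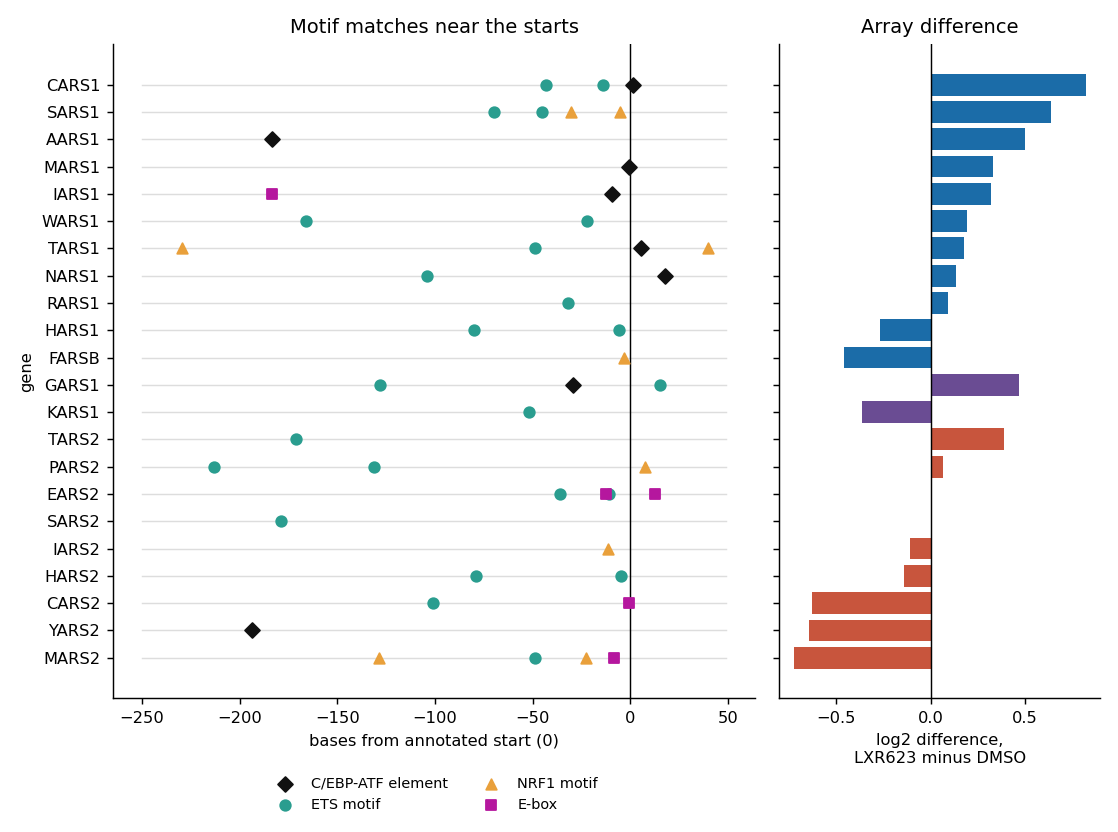
Left, positions of motif matches in bases from the annotated start for the synthetase genes with a match, where a gene with several starts shows a match once for each start; right, bars of the log2 difference, LXR623 minus DMSO, in blue for cytosolic, purple for both and red for mitochondrial genes. The C/EBP-ATF core (black diamonds) lies near the start in CARS1, MARS1, IARS1 and TARS1, and before base -180 in AARS1 and YARS2.

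Several members start head to head with another gene, within 500 bases in RefSeq. HARS1 and HARS2, the cytosolic and the mitochondrial histidine enzyme, face away from each other with 85 bases between their starts, and had differences of -0.27 for HARS1 and -0.14 for HARS2. Their windows overlap, so that the ETS matches counted for both genes are the same sites. SARS2 shares such a region with MRPS12, a protein of the mitochondrial ribosome. MRPS12 had 5.48 with LXR623 and 6.16 with DMSO, a difference of -0.68, whereas SARS2 had 0. KARS1 starts next to TERF2IP, a protein of telomeres, which had 7.57 with LXR623 and 7.10 with DMSO, a difference of 0.47 against -0.36 for KARS1. For WARS1, with 0.19, the neighbor WDR25 had 0.46, and for RARS2, with 0.11, the neighbor ORC3 had -0.11. For EARS2, with 0.01, the neighbor UBFD1 had 0.20, and LYRM4, the neighbor of FARS2, was not measured. Head-to-head genes were on the same side of 0 in the histidine pair and for WARS1, and on opposite sides for KARS1 and RARS2. The sides of RARS2 with 0.11, ORC3 with -0.11 and HARS2 with -0.14 rest on small differences without replicates and are not secure. EARS2, with 0.01, is too near 0 to be given a side, and SARS2, with 0, has none.

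The genes that work with the synthetases were examined by lists. Of 8 genes of ATF4 and its reference targets 7 were at least 1.5-fold higher, where 6.30% of all measured probe sets were, with a median of 1.26, beside 0.19 for the cytosolic synthetases. The gene under 1.5-fold was ATF4 itself, with 9.02 in the LXR623 array, 8.46 in the DMSO array and a difference of 0.56. CHAC1, which degrades glutathione, had 7.71 with LXR623 and 5.82 with DMSO, and DDIT4, an inhibitor of mTORC1, differed by 1.44. ASNS, which makes asparagine, had 9.34 in the LXR623 array and 7.87 in the DMSO array, a difference of 1.47, whereas NARS1, which loads asparagine, differed by 0.13. PHGDH, which opens serine synthesis, had 10.80 with LXR623 and 9.50 with DMSO, a difference of 1.30 against 0.64 for SARS1. ASNS and PHGDH thus differed more than NARS1 and SARS1. The list that holds ASNS and PHGDH was chosen with earlier results of these data known, so this comparison tests nothing about amino acid supply.

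The route to selenocysteine starts with SARS1 and continues on the tRNA itself. PSTK, the kinase that phosphorylates the serine, had 5.34 with LXR623 and 4.14 with DMSO, a difference of 1.20. It counted as measured through the LXR623 array only, so this difference rests on a DMSO value under the measured level. SEPSECS, which turns the phosphoserine into selenocysteine, had 6.79 with LXR623 and 6.28 with DMSO, a difference of 0.51. The other genes of the route lay near 0 or moderately away from it, with EEFSEC, its elongation factor, at -0.10, SECISBP2, which binds selenoprotein mRNAs, at 0.21, and SEPHS1 and SEPHS2, the selenophosphate synthetase genes, at -0.08 and -0.19. The median of the 6 genes was 0.06, and apart from PSTK none passed 1.5-fold.

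Mitochondria have no enzyme of their own for glutamine. EARS2 loads the tRNA of glutamine with glutamate, and an amidotransferase of QRSL1, GATB and GATC then converts it. QRSL1, the catalytic subunit, had 7.13 with LXR623 and 7.63 with DMSO, a difference of -0.50, and GATB had 7.14 with LXR623 and 7.35 with DMSO, a difference of -0.21. GATC differed by 0.19 and MTFMT, which formylates the methionine loaded by MARS2, by -0.07. Of these 4 genes 0 passed 1.5-fold. Of 10 measured mitochondrial translation factors, 1 was at least 1.5-fold lower and 0 higher, near the 5.78% and 6.30% of all measured probe sets, with a median of -0.14, close to the -0.12 of the mitochondrial synthetases. MTRF1L, a release factor, had 6.03 with LXR623 and 6.63 with DMSO, a difference of -0.60. GFM1, an elongation factor, had 7.03 with LXR623 and 7.43 with DMSO, and MTIF3, an initiation factor, differed by 0.40 in the other direction.

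**Figure D5:**
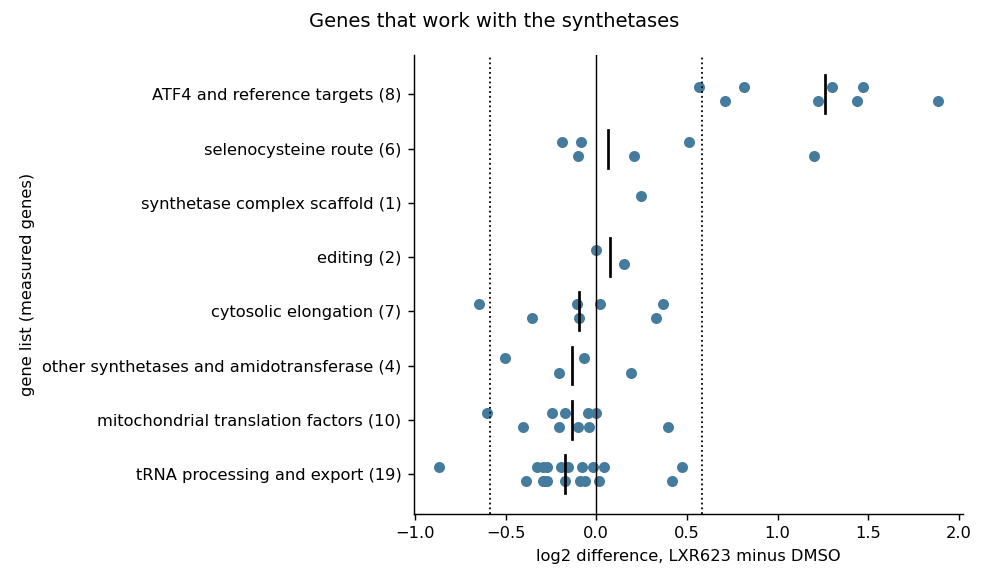
Log2 difference, LXR623 minus DMSO, of each measured gene (points) in 8 lists of genes that work with the synthetases, with black bars at the medians of lists of more than 1 gene and dotted lines at 1.5-fold; points are spread vertically only for display. The ATF4 list lies furthest to the right with a median of 1.26, and the translation factors of mitochondria have a median of -0.14.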

How the data were processed

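The authors deposited log2 intensities, 1 probe set per gene, made by RMA from 1 LXR623 array and 1 DMSO array; affy 1.36.1 and R 2.15.1 are listed in the submitters' processing notes. The array design and genome build are not given in the sources used here. RMA shrinks differences of dim probe sets, and the arrays' sorted values differ by up to 0.21, so whether they were normalized together is unknown. Of the 23786 probe sets, 22458 carry 1 symbol, 0 symbols are repeated and 1328 are unnamed here. All 35 members matched. Differences, medians and counts at 1.5-fold were computed without any test. All members are named and of each other list up to 3 genes by size of difference, with further genes picked out after their values were seen. The members and lists were chosen with earlier results of these data known. Promoter sequences come from RefSeq, GRCh38.p14, of which 39 windows belong to members. Alternatives covered filters, thresholds, scaling, the mean and the placing of GARS1 and KARS1. The number of arrays limits the precision. Python 3.11.15, numpy 2.4.6, pandas 2.3.3, statsmodels 0.14.6 and matplotlib 3.10.9 were used, and the procedure was tested on simulated data.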

Additional observations from a re-analysis of the deposited data

How the results depend on the processing

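No paired analysis was possible because each condition has a single array, and for the same reason no array could be left out. With a threshold of 2-fold, 0 cytosolic genes were higher and 0 mitochondrial genes lower. With a lower threshold of 0.32 on the log2 scale, 6 cytosolic genes were higher and 2 lower, and 1 mitochondrial gene was higher. These were 5 of 97 values recomputed under alternatives. The other 92 stayed within 1.5 times for a count and within 0.1 on the log2 scale for a median. Among these 92 was the count of 5 mitochondrial genes lower at the threshold of 0.32. The values under the other filters could not move, since all genes counted passed the strictest filter. The shares of all measured probe sets past 2-fold and past 0.32 were not computed. Close to 0.32, 17.7% of them were as high as MARS1, with 0.33, or higher. On the other side, 18.7% were as low as TSEN54, a tRNA processing gene with -0.33, or lower. The gap of the medians ran from 0.31 to 0.32, the cytosolic median from 0.15 to 0.23 and the mitochondrial median from -0.15 to -0.10. When means were used instead, the gap was 0.38 and the mitochondrial value was -0.19. The cytosolic gene had the larger difference in 11 pairs under each filter and scaling tried. Only quantile normalization and removal of the lowess trend could have changed this count. All 35 members passed the strictest filter, and centring shifts both genes of a pair alike. Quantile normalization, removal of the lowess trend (fraction 0.3) and median centring left all 35 members on their side of 1.5-fold; the sign changed for SARS2 under each of them and for EARS2 under centring. AARS2 is dim, and the DMSO values of PSTK and ABCA1 lie under the measured level.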

Other observations

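Of 19 measured genes that mature and export tRNAs, 15 had a difference below 0 and 4 above, where 51.7% of all measured probe sets were below 0, and the median was -0.17. At least 1.5-fold lower was 1 of them, near the 5.78% of all measured probe sets, and 0 were higher. POP1, a protein of RNase P, which trims the front end of tRNA precursors, had 6.92 in the LXR623 array and 7.79 in the DMSO array, a difference of -0.87. XPOT, the nuclear exporter of tRNAs, stood on the other side with 9.59 with LXR623 and 9.12 with DMSO, a difference of 0.47, near that of GARS1. ELAC1, an enzyme of the tRNA tail, had 6.10 with LXR623 and 5.68 with DMSO.

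Genes of cytosolic elongation, among them the kinase gene EEF2K, had a median of -0.09 over 7 measured genes. EEF1B2, a nucleotide exchange factor, had 6.89 with LXR623 and 7.53 with DMSO, a difference of -0.65. EEF2, which moves the ribosome along the mRNA, had 12.01 with LXR623 and 11.65 with DMSO, a difference of 0.37. EIF5A differed by -0.35. Of the enzymes that remove wrongly loaded amino acids, DTD1 differed by 0.15 and DTD2 by less than 0.01.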
